A study of Mus musculus with 8 samples.

Results

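The actin genes of the mouse were followed in cultured myotubes given a control virus or one that carries Cre to delete *RhoA*. RhoA is a small GTPase. The set was chosen by gene symbol and holds the 6 conventional actins. These are *Acta1* and *Actc1* of skeletal and cardiac muscle, *Acta2* and *Actg2* of vascular and enteric smooth muscle, and *Actb* and *Actg1* of the cytoplasm. A row was found for 5 of the 6 among 19505 genes, with 1 row each. *Actg1* has no row under its symbol, gene identifier or accession in the probe annotation, and 2634 of the 22206 rows are unnamed here, so *Actg1* was not analysed here. The cells were satellite cells, the stem cells of muscle. RhoA flox/flox mice with a Pax7-nGFP reporter gave the hindlimb muscle from which they were sorted. They were then grown as myoblasts and differentiated for 3 days. In all 8 samples both *RhoA* alleles were floxed around exon 3. The 4 control samples received the adenovirus Ad-mCherry. The 4 others, called Cre samples or arrays here, received Ad-Cre-mCherry, whose Cre recombinase removes the floxed exon. RNA was taken 48 h later. The fluorescent protein mCherry is on both viruses and Cre on 1 alone, so an effect of Cre itself and the loss of RhoA cannot be told apart here. The age of the mice is not given in the labels. The labels number the samples 1 to 4 in each group, without saying what a number stands for. The study's methods name 3 independent cultures, given Ad-mCherry or Ad-Cre-mCherry, without saying whether each received both. With 4 arrays per group, p-values may measure a spread that is partly technical.

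Actin monomers polymerise into filaments that serve as the thin filaments of the sarcomere and as the cortex and stress fibres of all cells. RhoA drives this polymerisation through formins, among other effectors. When monomers are used up, their partners, the myocardin-related transcription factors, are free to enter the nucleus and act with serum response factor (Srf), which reads a short sequence called the CArG box. Actin genes are textbook targets of Srf, so actin dynamics and actin transcription are linked. In skeletal muscle, *Acta2* and *Actc1* are known as the early isoforms of differentiating myoblasts and regenerating fibres, and *Acta1* as the main isoform of the adult fibre.

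The Srf sites of the measured muscle actins are shown because Srf links RhoA signalling to actin transcription. RefSeq promoter windows (GRCm38.p6) were found for 4 of the 6 genes, *Acta1*, *Acta2*, *Actc1* and *Actg1*. The 250 bases before the start of the first 3 follow, 5′ to 3′ on the coding strand, which is the minus strand in each. They lie at chr8:123894776-123895025 for *Acta1*, chr2:114052876-114053125 for *Actc1* and chr19:34255374-34255623 for *Acta2*. Capitals mark the CArG box, searched as CC, then 6 letters of A or T, then GG, and the same box with exactly 1 C or G among the 6. The strict box is covered on both strands, being its own reverse complement, and the looser box is as well.
Acta1: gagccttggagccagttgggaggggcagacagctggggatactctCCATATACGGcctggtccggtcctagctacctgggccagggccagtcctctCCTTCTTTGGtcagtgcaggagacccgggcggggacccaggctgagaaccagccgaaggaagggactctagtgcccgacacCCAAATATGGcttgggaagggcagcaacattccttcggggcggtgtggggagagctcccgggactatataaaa
Actc1: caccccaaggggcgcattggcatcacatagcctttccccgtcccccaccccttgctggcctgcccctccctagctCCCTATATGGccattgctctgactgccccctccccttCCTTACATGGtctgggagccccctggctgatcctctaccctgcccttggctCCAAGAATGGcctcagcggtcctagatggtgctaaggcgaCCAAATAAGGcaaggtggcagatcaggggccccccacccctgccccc
Acta2: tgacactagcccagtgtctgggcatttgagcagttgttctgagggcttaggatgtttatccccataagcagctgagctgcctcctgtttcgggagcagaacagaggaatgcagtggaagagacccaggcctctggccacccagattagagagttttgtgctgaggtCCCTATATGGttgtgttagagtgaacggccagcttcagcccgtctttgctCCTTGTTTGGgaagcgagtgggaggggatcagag

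*Acta1* held 1 strict box, CCAAATATGG, from 73 to 64 bases before the start, and 2 looser ones. *Actc1* held 1 strict box, CCAAATAAGG, from 47 to 38 bases before the start, and 3 looser ones. *Acta2* held no strict box and 2 looser ones, CCCTATATGG from 84 to 75 and CCTTGTTTGG from 34 to 25 bases before the start. *Actg1* held 1 strict box, CCATATATGG. Of 32851 windows of the same length, 1.47% held the strict box, 7.24% the looser one and 0.67% at least 2 of either form. The motif CATTCC, known as the site of Tead factors, was found on either strand in *Acta1* and *Acta2* and in 12.6% of all windows. These matches describe the letters and were not tested as binding sites.

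*RhoA* itself read lower with Cre. Its row (listed as *Rhoa*) read 11.16, 11.39, 11.08 and 11.39 on the log2 scale in control replicates 1 to 4 and 9.99, 10.87, 10.87 and 10.23 in Cre replicates 1 to 4. The groups did not overlap, as in 3.75% of all genes. The log2 fold change of *Rhoa* was -0.77, with an interval of -1.29 to -0.24 and adjusted p of 0.729 without and 0.138 with the replicate block (limma). Whether its probes lie in the deleted exon is not known. The values are log2 intensities that the authors normalized by Robust Multi-array Average, with array medians from 4.78 to 4.87. The markers of differentiated muscle were bright, and their mean log2 value over 8 genes ran from 14.80 to 16.22 over the arrays. Markers of fibroblasts averaged between 4.39 and 5.16 and those of endothelium between 3.58 and 4.20. Once each gene was centred within its group, arrays of equal replicate number correlated at 0.516 to 0.623 across genes, against -0.424 to 0.128 for different numbers. On this ground, and on no statement of the design, arrays of equal number were treated as pairs. Each isoform was compared with limma, fitted over all genes, first without and then with the replicate number as a block.

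*Acta2*, the smooth muscle α-actin, showed the largest difference among the 5 isoforms. It read 18.01, 16.84, 14.66 and 13.48 in control replicates 1 to 4 and 16.73, 15.80, 13.08 and 12.69 in Cre replicates 1 to 4. The groups overlapped widely, but in each group replicate 1 was the highest and replicate 4 the lowest. Within each replicate number the Cre array was the lower one, with log2 differences of -1.28, -1.04, -1.58 and -0.79, that is 2.43-, 2.06-, 2.99- and 1.73-fold. Means were 15.75 ± 2.05 (SD, n = 4) for the controls and 14.58 ± 1.99 (SD, n = 4) for Cre. The log2 fold change was -1.17, with a standard error of 1.16 and a 95% confidence interval of -3.79 to 1.45 without the block (limma, adjusted p = 0.877; two-sided exact permutation test of 4 against 4 arrays, p = 0.429). With the replicate block the same fold change had a standard error of 0.19 and an interval of -1.59 to -0.75, and *Acta2* fell, at an adjusted p of 0.0428 over all genes in limma. It was then the gene with the 42nd smallest p of 19505. Since all 4 pairs went down, a sign-flip permutation test over the pairs gave p = 0.125, the smallest that 4 pairs allow.

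The blocked call for *Acta2* needed all 4 pairs. Without replicate 1, 2, 3 or 4 the blocked log2 fold change was -1.14, -1.22, -1.04 or -1.30, and the adjusted p in limma was 0.0636, 0.265, 0.0954 or 0.0613. Without the block, leaving out 1 array alone moved the log2 fold change to between -0.42, without Ad-mCherry replicate 1, and -1.93, without Ad-mCherry replicate 4.

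The spread of *Acta2* between replicate numbers was wider than its difference between viruses. Its 4 values spanned 4.53 log2 units, or 23.1-fold, with Ad-mCherry and 4.04 units, or 16.4-fold, with Ad-Cre-mCherry. The median gene spanned 0.65 units in the Ad-mCherry arrays. The SD of *Acta2* in that group was the 82nd largest of 19505. Of its sum of squares over the 8 arrays, 89.3% lay between replicate numbers, 10.1% between viruses and 0.625% in the rest. The median share of the replicate number over all genes was 52.4%.

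**Figure D1:**
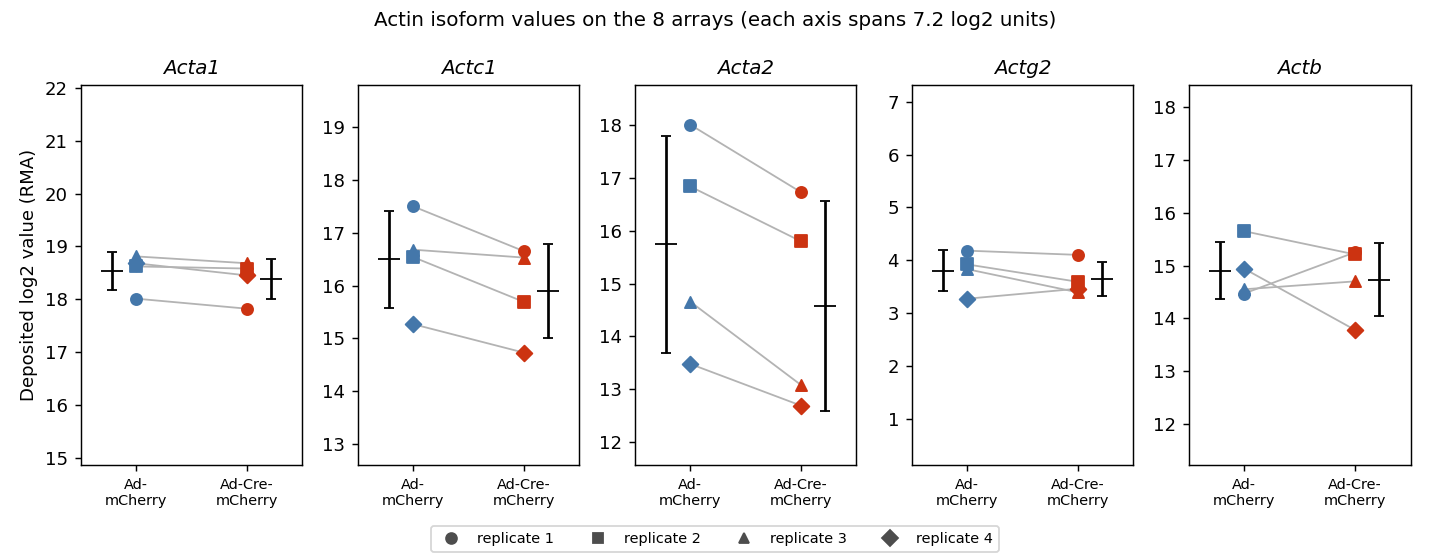
Deposited log2 values of the 5 measured actin isoforms in Ad-mCherry (blue) and Ad-Cre-mCherry (red) arrays, with a marker shape per replicate number, grey lines joining arrays of the same number, and black bars for the mean ± SD (n = 4). Each axis spans the same number of log2 units, and the 4 lines of *Acta2* all run downward from starting points between 13.48 and 18.01.

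*Actc1*, the cardiac α-actin that fetal and newly formed skeletal muscle also makes, had the next largest difference. It read 17.50, 16.54, 16.68 and 15.27 in the controls and 16.65, 15.69, 16.53 and 14.73 in the Cre arrays. The groups overlapped, and replicate 1 was again the highest and replicate 4 the lowest in both. The Cre array was lower within every number, with differences of -0.85, -0.85, -0.15 and -0.54. The log2 fold change was -0.60, with a 95% confidence interval of -1.80 to 0.60 (limma, adjusted p = 0.862; exact permutation test, p = 0.371). With the replicate block the interval was -1.02 to -0.18, the unadjusted p 0.00983 and the adjusted p 0.179 in limma. *Actc1* thus missed the adjusted threshold of 0.05 in both fits. It passed, with the block, the thresholds the study used for its arrays, 1.2-fold or more with an unadjusted p under 0.05. That was lost without replicate 2, where the blocked p was 0.0528 in limma.

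*Acta1*, the skeletal α-actin of the mature sarcomere, showed a small difference. It read 18.01, 18.62, 18.81 and 18.68 in the controls and 17.82, 18.58, 18.68 and 18.45 in the Cre arrays. Here replicate 1 was the lowest in both groups, opposite to *Acta2* and *Actc1*. Differences within the numbers were -0.19, -0.04, -0.13 and -0.23, all of 1 sign. The log2 fold change was -0.15, with an interval of -0.71 to 0.41 without the block and -0.52 to 0.23 with it (limma, adjusted p = 0.934 and 0.756; exact permutation test, p = 0.514). The row ranked between 11 and 53 from the top of the 19505 genes on each array. No saturation calls were used here, so how far a difference this near to the top of the scale is compressed is not known.

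*Actb*, the cytoplasmic β-actin often used as a reference gene, went both ways. It read 14.47, 15.65, 14.55 and 14.94 in the controls and 15.25, 15.21, 14.70 and 13.78 in the Cre arrays. The differences were 0.78, -0.44, 0.15 and -1.16 in replicates 1 to 4, so the Cre array was the higher one in 2 numbers and the lower one in 2. The log2 fold change was -0.17, with an interval of -1.01 to 0.68 (limma, adjusted p = 0.953; exact permutation test, p = 0.743), and it turned to 0.16 without replicate 4. *Actb* was also the isoform whose values followed the replicate number least, with 53.5% of its sum of squares between numbers and 44.1% in the rest.

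*Actg2*, the γ-actin of enteric smooth muscle, was dim. It read 4.18, 3.92, 3.83 and 3.27 in the controls and 4.10, 3.59, 3.39 and 3.46 in the Cre arrays. These values lay between the 12.3 and 37.9 percentile of their arrays. The log2 fold change was -0.17, with an interval of -0.71 to 0.38 (limma, adjusted p = 0.923; exact permutation test, p = 0.514). No detection calls were used here, and how far the row lies above background is not known.

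**Figure D2:**
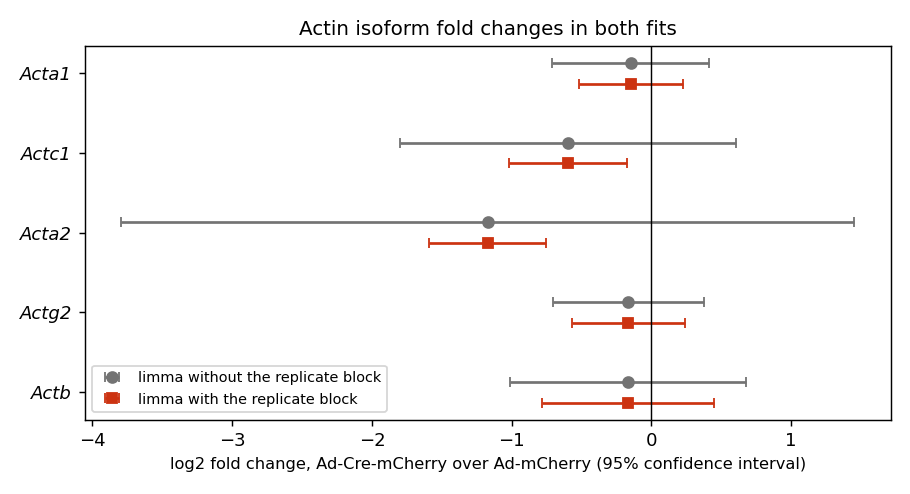
Log2 fold change of each actin isoform, Ad-Cre-mCherry over Ad-mCherry, with its 95% confidence interval from limma without (grey circles) and with (red squares) the replicate block. The estimates are the same in both fits and the interval of *Acta2* narrows from -3.79 to 1.45 to between -1.59 and -0.75.

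Taken as a set, all 5 measured isoforms had a log2 fold change below 0, as did 49.8% of all genes. Of the 5, *Acta1*, *Acta2* and *Actc1* were lower in 4 of 4 replicate numbers, and 11.1% of all genes were. None was higher in 4 of 4, as 9.88% of all genes were. No isoform had groups without overlap, against 3.75% of all genes. Without the block, 0 of 5 passed an adjusted p under 0.05 in limma, against 0.00% of all genes, and 0 passed the thresholds of the study, against 6.42%. At an unadjusted p under 0.05 the count was 0 in limma, beside 1252 of all 19505 genes. It was 0 in gene-by-gene tests with unequal variances, beside 955 of all genes. With the block, *Acta2* alone of the 5 passed the adjusted threshold, against 0.323% of all genes, and *Acta2* and *Actc1* passed the thresholds of the study, against 14.7%. The actin coding sequences are much alike and no source used here gives the probe positions, so signal from 1 isoform in the row of another cannot be told apart. Levels were not compared between isoforms, since each row has its own probes.

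Whether the striated isoforms changed unequally was tested on the difference of their log2 values within each array. *Acta1* minus *Actc1* was higher with Cre by 0.45 (95% confidence interval -1.52 to 2.42; exact permutation test, p = 0.543). Within replicates 1 to 4 this difference was 0.66, 0.81, 0.02 and 0.31, positive in all 4. Over the 4 pairs the interval was -0.12 to 1.02, which includes 0 (sign-flip permutation test, p = 0.125). *Acta1* lies near the top of the scale, where the degree of compression is not known, and this limits the contrast. The smooth muscle pair was also computed, but since the height of the *Actg2* row above background is not known, no contrast of *Acta2* with *Actg2* is drawn. The cytoplasmic pair needed *Actg1*.

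**Figure D3:**
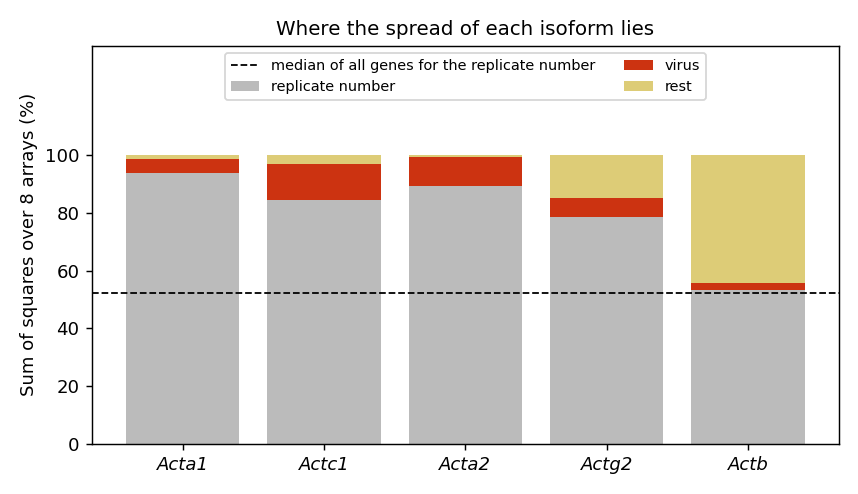
Share of each isoform's sum of squares over the 8 arrays (%) that lies between replicate numbers (grey), between viruses (red) and in the rest (yellow), with the median share of the replicate number over all genes as a dashed line. The share of the replicate number is 93.8% for *Acta1*, 89.3% for *Acta2*, 84.4% for *Actc1*, 78.5% for *Actg2* and 53.5% for *Actb*.

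Across the 8 arrays the isoforms fell into contrasting patterns. *Acta2* ran with *Actg2* (Pearson r = 0.894) and *Actc1* (0.719), while *Acta1* ran opposite to *Acta2* (-0.598) and *Actg2* (-0.674). *Actb* was close to unrelated to *Acta1* (-0.016). These are descriptions over 8 arrays that share 2 viruses and 4 replicate numbers. How far the *Actg2* row lies above background is not known. Over the 4 differences within replicate numbers, r was 0.764 for *Acta2* with *Actg2* and -0.496 for *Acta2* with *Actc1*. Among the 9754 brighter genes, those most like *Acta1* were *Mamdc2* (0.988), *Mybpc1*, a myosin-binding protein of the sarcomere (0.988), and *Sync*, an intermediate filament protein (0.976). Those most like *Actc1* were *Wdr20* (0.971), *Chrnb1*, a subunit of the acetylcholine receptor (0.962), and *Bhlhe40*, a transcription factor (0.961). For *Acta2* they were *Rpl23*, a ribosomal protein (0.982), the transcription factor *Sim2* (0.976) and the keratin *Krt80* (0.973). For *Actb* they were *Nfic* (0.953), *Plau*, the urokinase plasminogen activator (0.932), and *Lbr*, the lamin B receptor (0.931), and for *Actg2* they were *Igfn1* (0.979), *Dnajb12* (0.968) and *Rabepk* (0.953).

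*Acta1* ran with many genes of its partners in the thin filament. Of 26 such genes, 10 had an r above 0.7 with *Acta1* over the 8 arrays, against 6.65% of all genes. They included *Klhl41*, a stabiliser of nebulin (0.939), *Xirp2* (0.877), the tropomyosin *Tpm2* (0.874) and the fast troponin *Tnni2* (0.841), all named after their values were seen. Others of the list did not, with r of -0.605 for *Tnnc1*, -0.533 for the dim *Nebl* and 0.044 for *Tnnt2*, also named after their values were seen. With *Actc1* the count was 2 of 26, *Tnnt2* (0.718) and *Tnnt1* (0.724), the cardiac and slow troponin T, against 4.49% of all genes. With *Acta2* it was 0 of 26, against 6.92%.

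*Acta2* ran with some genes of several lists. An r above 0.7 was found for 4 of 12 smooth muscle genes, 5 of 22 Srf pathway genes and 4 of 19 folding genes, against 6.92% of all genes. *Myl9* and *Tagln* count in both of the first. The Srf and folding counts were not particular to *Acta2*. With *Acta1*, 5 of the 22 Srf pathway genes had an r above 0.7, against 6.65% of all genes. Of the 19 folding genes 5 did so with *Actc1*, against 4.49%, and 5 with the dim *Actg2*, against 4.86%. Other members ran opposite to *Acta2*, with r of -0.552 for *Synpo2* and -0.410 for *Tpm2* in the smooth muscle list. In the Srf list r with *Acta2* was -0.692 for *Junb*, -0.604 for *Filip1l* and -0.594 for *Fos*. In the folding list r was 0.911 for the chaperonin subunit *Cct2* and -0.728 for *Msrb1*. For the genes followed here r was 0.909 with *Ccn2*, a secreted matrix protein, 0.880 with *Myl9*, the smooth muscle myosin light chain, 0.800 with *Tagln*, the actin-binding transgelin, 0.735 with *Srf* and 0.715 with *Cald1*, the filament-binding caldesmon. Except *Synpo2* and *Msrb1*, the genes named for these correlations were chosen after their values were seen. *Myl9* read 10.34, 9.78, 7.31 and 7.21 in the controls and 11.95, 10.17, 6.50 and 6.99 in the Cre arrays, so replicates 1 and 2 stood above 3 and 4 as in *Acta2*. Its differences within the numbers were 1.61, 0.39, -0.81 and -0.22. Those of *Tagln* were 1.81, -1.05, -1.27 and -1.19, and those of *Ccn2* were -1.40, -1.70, 0.12 and -0.32. Of *Ccn2*, *Myl9*, *Tagln*, *Srf* and *Cald1*, the last alone was lower in every number, with differences of -0.65, -1.79, -0.97 and -0.72 (log2 fold change -1.03; with the block, adjusted p = 0.0767 in limma), and whether these genes differ from *Acta2* in their response to Cre was not tested. *Srf* itself had a log2 fold change of 0.05 (adjusted p with the block 0.958).

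**Figure D4:**
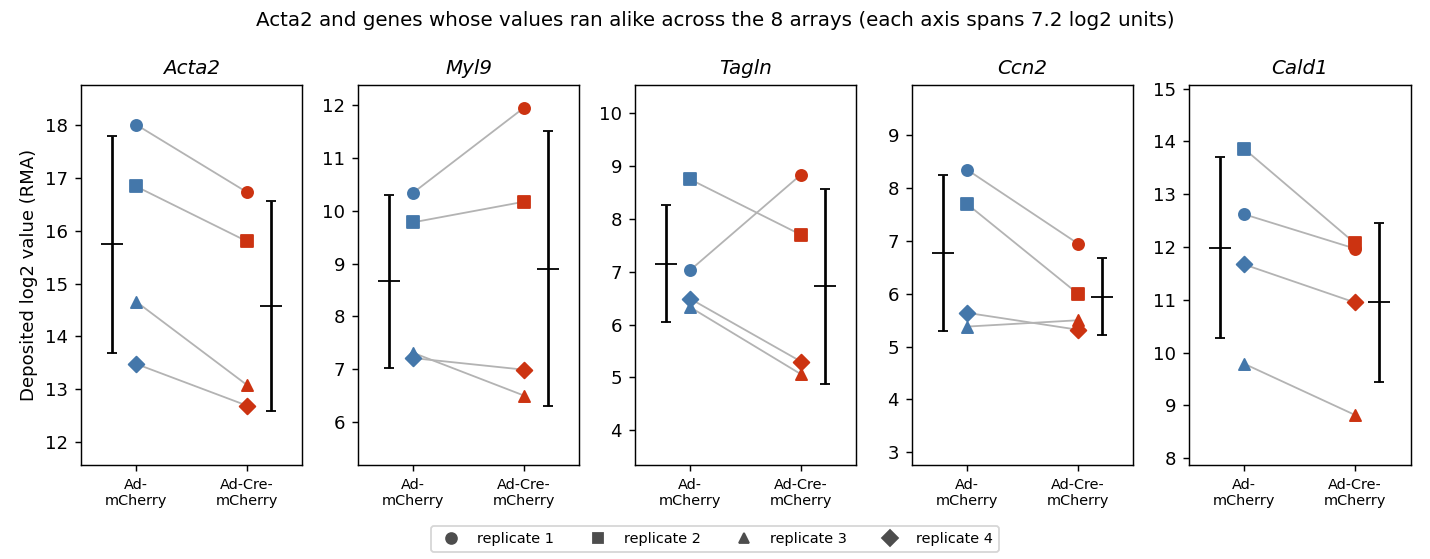
Deposited log2 values of *Acta2*, *Myl9*, *Tagln*, *Ccn2* and *Cald1* in Ad-mCherry (blue) and Ad-Cre-mCherry (red) arrays, with a marker shape per replicate number, grey lines joining arrays of the same number and black bars for the mean ± SD (n = 4). Within each virus, replicates 1 and 2 lie above 3 and 4 in all panels. *Acta2* and *Cald1* are the panels in which all 4 lines run downward.

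*Acta2* is also a marker of smooth muscle cells and of myofibroblasts, so the markers of such cells stand beside it. The 6 markers of smooth muscle and pericytes had mean log2 values of 4.95 to 5.54 with Ad-mCherry and 4.56 to 5.29 with Ad-Cre-mCherry. Of the 6, 5 had a fold change below 0, as did 49.8% of all genes. *Cspg4*, a proteoglycan of pericytes, passed the thresholds of the study downward (-0.89, standard error 0.27), with and without the block, and was lower in 4 of 4 replicate numbers. Over all genes 3.50% passed downward without the block and 8.20% with it, and 11.1% were lower in 4 of 4. The summed signal of the 6 markers, taken on the linear scale, ran from 8.30 to 10.25 and from 7.50 to 10.24 in log2 units. *Myh11*, the smooth muscle myosin that defines these cells, lay at 4.37 and 4.21 in the group means, the 39.9 percentile of all genes. The brightest of them on average was *Abcc9*, a potassium channel subunit, which read 6.83, 8.99, 10.06 and 9.39 in the controls and had an r of 0.954 with *Acta1* and of -0.752 with *Acta2* over the 8 arrays. In Cre replicate 3 *Abcc9* read 10.09, so the upper ends of the summed signals, 10.25 and 10.24, were mostly this gene. The 7 fibroblast markers had means of 4.47 to 5.16 and 4.39 to 4.83. Of the 7, 5 were below 0, against 49.8% of all genes, and 0 passed the thresholds of the study, against 6.42%. Summed signals of the 7 were 7.49 to 8.18 and 7.36 to 7.88. *Col1a1* was the brightest of them, at 5.91 and 5.75. Markers of differentiated muscle were below 0 in 7 of 8, as were 49.8% of all genes. The myogenic factor *Myog* (-1.48) and the embryonic myosin *Myh3* (-1.23) passed the thresholds of the study downward, against 3.50% of all genes lower. Both were lower in 4 of 4 replicate numbers. With the block each fell at an adjusted p of 0.0396 in limma, a threshold of 0.05 that 0.323% of all genes passed. With the block 3 of these 8 markers passed the thresholds of the study downward, against 8.20% of all genes lower. Upward passed 1, *Ckm*, the muscle creatine kinase (0.62), which was higher in 4 of 4 numbers. Over all genes 14.7% passed in either direction with the block, and 9.88% were higher in 4 of 4 numbers. Of 4 muscle stem cell markers 3 were lower, against 49.8% of all genes, at a median of -0.49. Without the block 0 of these 4 passed, and with it 3 passed downward, against 8.20% of all genes lower. These were the myogenic factor *Myf5* (-1.07), the cadherin *Cdh15* (-0.54) and the adhesion molecule *Vcam1* (-0.44), at adjusted p of 0.206, 0.236 and 0.280 in limma. *Pax7*, which defines these cells, was dim, at the 26.6 percentile of all genes, and had a log2 fold change of 0.08. Its differences within replicates 1 to 4 were -0.07, -0.10, -0.09 and 0.58. *Cspg4*, *Abcc9*, *Ckm* and the stem cell markers were named after their values were seen. Fewer cells of a type and less RNA per cell cannot be told apart in such cultures, and the part of these markers in the *Acta2* result was not tested.

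Around the actins, 6 lists of partner genes were counted, in the same fit over all genes. Some genes, such as *Tpm2*, *Myl9* and *Tagln*, stand in 2 of them. Over all genes 49.8% had a log2 fold change below 0. Of 26 thin filament partners 19 were lower and 7 higher, and their median log2 fold change was -0.19, beside a median of 0 over all genes. Past the thresholds of the study, 0 were higher and 3 lower, against 3.50% of all genes lower. These 3 were *Lmod2* (-1.02, standard error 0.44) and *Lmod3* (-0.72, standard error 0.31), the leiomodins that nucleate actin in the sarcomere, and the actin-binding *Xirp1* (-0.73, standard error 0.26). Each was lower in all 4 replicate numbers, with differences of -2.06, -0.90, -0.36 and -0.76 for *Lmod2*. With the block 1 was higher and 5 were lower, against 8.20% of all genes lower, and 0 passed the adjusted threshold. Leaving out replicate 1 brought these 3 to 0, and leaving out replicate 2 to 1.

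The 22 Srf pathway genes had 7 higher and 15 lower, with a median of -0.39. The thresholds of the study were passed downward by 2, against 3.50% of all genes lower. These were *Ccn1*, a secreted matrix protein (-1.65, standard error 0.52), and *Ptgs2*, cyclooxygenase 2 (-1.41, standard error 0.49). *Ccn1* read 12.28, 13.95, 13.29 and 12.43 in the controls and 10.24, 11.97, 12.30 and 10.86 in the Cre arrays. With the block 7 passed downward and 0 upward, against 8.20% of all genes lower, and *Ccn1* fell at an adjusted p of 0.0314 over all genes in limma. *Fhl1*, a LIM domain protein of muscle, and *Vcl*, which encodes vinculin, were among the 7, at log2 fold changes of -1.05 and -0.79 and adjusted p of 0.0637 and 0.0842 with the block, named after their values were seen. Of the 12 smooth muscle contractile genes 9 were lower and 3 higher, at a median of -0.20, and 0 passed the thresholds of the study, against 6.42% of all genes. The smallest p values were those of *Smtn*, smoothelin (-0.35, standard error 0.21), and *Synpo2*, an actin-bundling protein (-0.60, standard error 0.39). With the block 2 passed downward, *Synpo2* and *Cald1*, against 8.20% of all genes lower. Without replicate 2 the Srf count was 1, and without replicate 3 the smooth muscle count was 1.

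The proteins that handle actin monomers had differences of both signs. Of 18 genes for monomer binding and severing, 9 lay above 0 and 9 below, at a median of -0.04. *Twf2*, twinfilin 2, which binds monomers and caps filaments (1.10, standard error 0.29), and the filament-binding *Cotl1* (0.76, standard error 0.24) passed the thresholds of the study upward and 0 passed downward. Over all genes 6.42% passed them in either direction. *Twf2* was higher in every number, by 1.52, 1.27, 1.08 and 0.51. With the block 3 passed upward and 2 downward, against 14.7% of all genes in either direction. They included *Cfl1*, the filament-severing cofilin 1 (1.06), and *Tmsb4x*, thymosin β4, which holds monomers (-1.25), named after their values were seen, at adjusted p of 0.181 and 0.0887 in limma. Without the block, leaving out replicate 4 raised the 2 to 5 and leaving out replicate 2 lowered it to 1.

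Of 21 genes for the folding and modification of actin 19 were measured, with 10 higher, 9 lower and a median of 0.02. Past the thresholds of the study were 4 genes, against 6.42% of all genes. They were *Msrb1*, which reduces oxidised methionines of actin (1.63, standard error 0.51), the prefoldin subunit *Pfdn4* (0.72, standard error 0.22) and *Tcp1*, a subunit of the chaperonin that folds actin (0.58, standard error 0.19), all upward, and the prefoldin subunit *Vbp1* (-0.82, standard error 0.23) downward. *Msrb1* read 7.99, 7.82, 9.96 and 9.73 in the controls and 10.40, 9.96, 11.14 and 10.50 in the Cre arrays, and with the block it rose at an adjusted p of 0.0444 in limma. With the block 4 of the 19 passed upward and 1 downward, against 14.7% of all genes in either direction. Without replicate 2 the 4 genes became 2. Of 18 actin-related and actin-like genes 13 were measured, with 6 higher, 7 lower and a median of -0.06. None passed the thresholds of the study in limma, against 6.42% of all genes. The smallest p values were those of *Actr3*, a subunit of the Arp2/3 nucleator (-0.62, standard error 0.28), and the testis gene *Actrt2* (0.39, standard error 0.19). At an unadjusted p under 0.05 the count was 0, beside 1252 of all 19505 genes. At an adjusted p it was also 0, against 0.00%. With the block *Actr3* passed downward, against 8.20% of all genes lower, and without it 1 gene passed when replicate 2, 3 or 4 was left out.

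**Figure D5:**
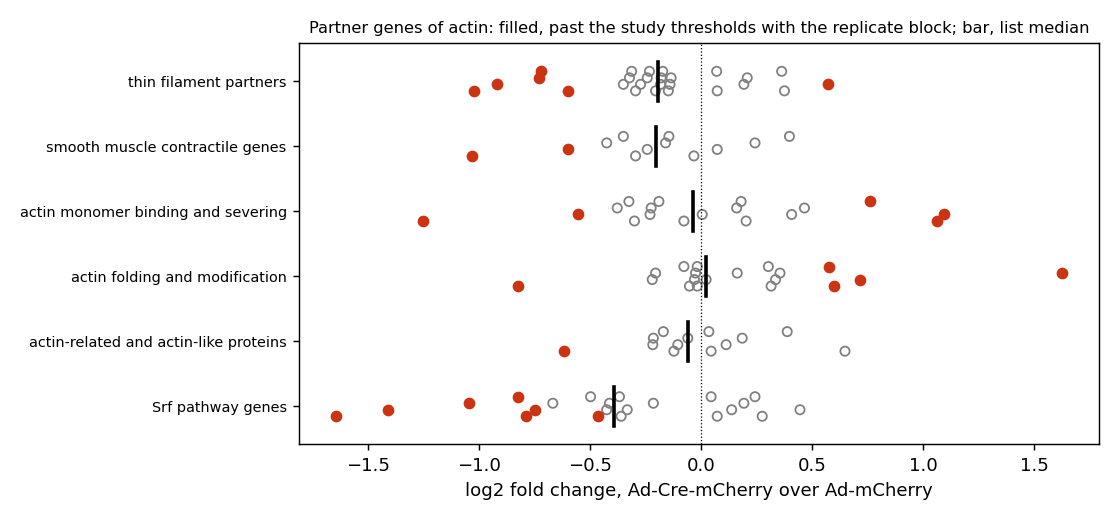
Log2 fold change, Ad-Cre-mCherry over Ad-mCherry, of the measured genes of 6 partner lists, with a point per gene, filled red where the gene passed the thresholds of the study with the replicate block, and a black bar at the median of the list. The medians lie between -0.39 for the Srf pathway genes and 0.02 for the folding and modification genes, and *Ccn1* (-1.65) and *Msrb1* (1.63) lie at the ends.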

How the data were processed

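RNA from 8 myotube samples, 4 per group by the submitters' labels, was amplified from 25 ng, and 3.6 µg of labelled DNA was hybridised to 1 array per sample. The deposited values are log2 intensities that the authors made with RMA in Affymetrix Expression Console, with no version stated in these sources. They run from 2.05 to 19.89. RMA corrects background, normalizes by quantiles and summarises probes, and whether a further step was applied is not stated, so folds hold for the deposited scale. The methods name Mouse Gene 2.0-ST arrays, and the row identifiers belong to another Affymetrix mouse design.

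Of 22206 rows, 19572 have 1 symbol, 0 several and 2634 none. The row with the highest mean stands for each of 19505 genes. These were compared with limma 3.58.1 (R 4.3.3), with two-sided p adjusted by Benjamini-Hochberg across all of them. Single values were compared by exact permutation tests, whose smallest p with 4 against 4 arrays is 0.0286. The code was tested on simulated data with independent noise in each array. Those data held no effect shared by a replicate number, so they do not show how the blocked fit behaves where arrays pair. The number of arrays limits the precision.

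The members and lists were chosen with earlier results of these data known. Named genes were the isoforms, *RhoA*, in each list up to 4 genes past the thresholds of the study by smallest p, or the 2 of smallest p where none passed, and the 3 genes most correlated with each isoform.

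The study's methods state no block for the arrays. Arrays of replicate numbers 1 to 4 correlated between the groups at 0.561, 0.516, 0.623 and 0.557 after removal of the group means, each over the minimum of 0.1. The alternatives were the replicate block, centring, quantile normalization again, the mean of rows, a filter on dim genes, eBayes with trend and robust settings, unequal variances and leaving out arrays. The settings that combine the block with another choice were chosen after seeing the data. The planned contrast of *Actb* with *Actg1* could not be made.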

Additional observations from a re-analysis of the deposited data

Results flagged for a closer look

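In 60 sets of 4 arrays, the named genes in each group, 2 values stood apart by Dixon's criterion at 95% confidence, where chance gives about 1 in 20. *Twf2* read 9.27 in Ad-mCherry replicate 4, with the 3 others between 9.63 and 9.66. *Ptgs2* read 7.56 in Ad-Cre-mCherry replicate 4, with the 3 others between 6.48 and 6.62. No actin isoform was among them.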

How the results depend on the processing

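The replicate block made the fold change of *Acta2* pass the adjusted threshold at an unchanged value of -1.17 (adjusted p = 0.0428 in limma). Combined with the block, the log2 fold change of *Acta2* was -1.17 with centring, -1.16 with quantile normalization again, -1.17 with only the brighter genes and -1.17 with trend and robust settings, with adjusted p of 0.0483, 0.0493, 0.0468 and 0.00464. In these 5 blocked settings 1 isoform passed the adjusted threshold and 2 passed the thresholds of the study. With the block and without replicate 1, 2, 3 or 4 the latter count was 2, 1, 2 or 2. The block raised the counts past the thresholds of the study to 6 of 26 thin filament partners and 7 of 22 Srf pathway genes. They rose to 5 of 18 genes of monomer binding and severing, 2 of 12 smooth muscle contractile genes and 1 of 13 actin-related genes. Of 19 folding genes, 4 passed upward and 1 downward with the block. The share over all genes rose as well, from 6.42% to 14.7%. Leaving out a replicate number gave counts of 0 to 3 thin filament partners, 0 to 1 smooth muscle genes, 1 to 5 monomer genes, 2 to 4 folding genes, 0 to 1 actin-related genes and 1 to 3 Srf pathway genes. Shares over all genes are not given for these settings. Leaving out 1 array or 1 replicate number gave log2 fold changes of -0.32 to 0.04 for *Acta1*, positive only without Ad-Cre-mCherry replicate 1, and of -0.48 to 0.16 for *Actb*, positive without replicate 4 (0.16, also with the block), Ad-mCherry replicate 2 (0.08) or Ad-Cre-mCherry replicate 4 (0.15). Without 1 replicate number *Myl9* ranged from -0.21 to 0.59 and *Srf* from -0.20 to 0.20. *Myl9* changed sign without replicate 1 and *Srf* without replicate 1 (-0.20) or 3 (-0.0067). The list medians ranged from -0.22 to 0.0167 for the monomer genes, above 0 without replicate 2 (0.01) or 3 (0.0167), and from -0.10 to 0.0467 for the actin-related genes, above 0 without replicate 3. The cause of these shifts was not tested. Without the block, centring, quantile normalization, trend and robust settings and unequal variances left all 5 isoforms below 0 and on the same side of the adjusted threshold, as did the mean of rows. *Actg2* drops out of the brighter genes and has no value there. Without the block, *Acta2* and *Actc1* stayed below 0 in each of the 12 settings that leave out arrays, over ranges of -1.93 to -0.42 and -1.01 to -0.21. Arrays give no count depth, and how far *Actg2* lies above background is not known.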
